A study of Mus musculus with 26 samples.

Results

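The genes described here are 41 interferon-stimulated genes, taken by symbol from a fixed list of well-known interferon targets. All 41 were found among the 23416 genes of the deposited table, and all 41 passed the filter on low values that left 12116 genes to test. They were measured by Smart-Seq2, a full-length RNA-seq method for small cell inputs, in 26 libraries of haematopoietic stem cells (HSCs). The cells were purified by flow cytometry from the bone marrow of a mouse model of myeloproliferative neoplasm. The 4 genotypes were control (CTR, n = 5), JAK2V617F (n = 7), Ezh2 loss (n = 7) and a double mutant with both alterations (n = 7), whose label spells the mutation JAK2V17F. JAK2V617F is an activated form of the kinase JAK2, and Ezh2 encodes the histone H3 methyltransferase of Polycomb repressive complex 2. The sources used here give no age, sex, strain, promoter or Cre driver, no number of cells per library, and no statement of which replicates came from separate animals. The p-values therefore measure the spread between these libraries, which may be technical. Levels are RPKM, a read count divided by gene length and library depth, and fold changes are differences in log2(RPKM + 1), which understate the change of genes near 0.

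Interferons are secreted proteins that bind receptors on the cell surface. The receptors activate the kinases JAK1, TYK2 and JAK2, which phosphorylate transcription factors of the STAT family. Together with IRF9, STAT proteins bind the interferon-stimulated response element (ISRE) in target promoters, and STAT dimers bind gamma-activated sequences (GAS). The targets sense foreign nucleic acid, block viral replication and adjust the response itself. In bone marrow, interferon is known to push quiescent HSCs into the cell cycle.

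Promoter sequences were read for 32 of the 41 genes from RefSeq (GRCm38.p6), in windows of 250 bases before to 50 bases after a transcription start. An ISRE-like match, spelled GAAANNGAAA on either strand, was in a window of 16 of these 32 genes , against 3.94% of 26993 other genes. A GAS-like match, spelled TTCNNNGAA and the same on both strands, was in 10 of 32 (31.2%), against 9.53%. The spellings can share bases, since the GAA of an ISRE-like match can end a GAS-like one. A match is a description of letters and not a binding site. Stretches from 5 genes whose values are given below are shown so that the spacing of the element can be compared, with the ISRE-like match in capitals (a match that begins with TTTC lies on the strand opposite to the gene). They lie at chr3:142620569-142620648 (plus strand, Gbp2), chr19:34640750-34640848 (plus, Ifit1), chr19:34583338-34583451 (plus, Ifit3), chr12:26456528-26456607 (minus, Rsad2) and chr5:120777690-120777769 (minus, Oas3), written in the direction of the gene.
Gbp2: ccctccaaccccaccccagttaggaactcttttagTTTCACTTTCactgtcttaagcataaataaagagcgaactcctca
Ifit1: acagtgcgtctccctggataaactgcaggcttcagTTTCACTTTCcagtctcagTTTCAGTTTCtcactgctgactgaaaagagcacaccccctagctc
Ifit3: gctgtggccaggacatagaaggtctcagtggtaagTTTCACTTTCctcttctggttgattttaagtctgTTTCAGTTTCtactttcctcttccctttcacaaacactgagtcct
Rsad2: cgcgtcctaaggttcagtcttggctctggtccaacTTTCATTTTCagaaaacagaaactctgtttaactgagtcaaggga
Oas3: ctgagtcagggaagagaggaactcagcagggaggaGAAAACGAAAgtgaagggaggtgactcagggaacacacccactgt
Gbp2, Ifit1 and Ifit3 held the same 10 letters, and Ifit1 and Ifit3 each held a further match downstream. The windows of Irf7, Irf9 and Oasl2 held no ISRE-like match.

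Every library had RPKM of at least 1 for 11 or 12 of 12 HSC markers. Depth, estimated from the steps between low RPKM values, was 7.82 to 29.21 M reads. Sample titles put the replicate number before the group code in 15 libraries (number-first) and after it in 11 (number-last), and the sources used here do not say what that marks. Number-first libraries made up 4 of 5 control, 2 of 7 JAK2V617F, 2 of 7 Ezh2 loss and 7 of 7 double-mutant libraries. Estimated depth differed by title style, with overlapping ranges. It spanned 14.25 to 29.21 M reads where the number came first, and 7.82 to 18.18 M where it came last. The count of genes reaching an RPKM of 1 spanned 9698 to 11007 and 9223 to 10065 in that order. Depth and detection are therefore mixed with genotype in the same way as title style. The summed RPKM of 10 neutrophil markers ran from 39.5 to 388 (control), 72.9 to 17700 (JAK2V617F), 405 to 38200 (Ezh2 loss) and 43.2 to 52100 (double mutant). That of 9 monocyte markers ran from 13.8 to 89.3, 23 to 94.4, 47.2 to 515 and 14.8 to 1310 in that order of genotypes. For 10 markers of plasmacytoid dendritic cells, known interferon producers, it ran from 138 to 318, 180 to 286, 184 to 325 and 133 to 429. Bst2, among both these markers and the 41 genes, alone ran from 123 to 286, 157 to 264, 143 to 239 and 112 to 295. As few as 3 of the 10 markers reached 1 RPKM in a library of each genotype. The sum therefore rests largely on Bst2 and says little on these cells. Erythroid markers (8 in the table) summed to 33.0 to 6080 RPKM with a median of 1060 in Ezh2 loss, against 25.7 to 32.8 in control, 2.46 to 41.3 in JAK2V617F and 7.35 to 49.5 in double mutants. B-cell markers (7) summed to 50.1 to 220 RPKM over all libraries, with Pax5 at 0 throughout. As few as 1 of the 7 reached 1 RPKM in a library of each genotype. T and NK cell markers (10) summed to 13.2 to 634 RPKM, with medians of 157 in Ezh2 loss and 69.6 in control and with Cd3e at 0 throughout. The granulocyte gene Retnlg was at 0 in 5 of 5 control, 6 of 7 JAK2V617F, 0 of 7 Ezh2 loss and 4 of 7 double-mutant libraries. Results are therefore also given with title style as a covariate, in number-first libraries alone and in libraries with Retnlg at 0. Ezh2 RNA was 17.6 ± 9.0 RPKM (SD) with Ezh2 loss and 17.4 ± 9.07 in double mutants, against 23.7 ± 10.4 in control and 27.1 ± 8.21 with JAK2V617F, so the ranges overlapped and Ezh2 was not called (Ezh2 loss against control -0.43, limma adjusted p = 0.791). Jak2 RNA was 11.3 ± 7.93 RPKM in double mutants, 17.8 ± 9.37 with Ezh2 loss, 12.8 ± 5.71 with JAK2V617F and 16.2 ± 4.71 in control. The base change of the mutant allele and the deleted part of Ezh2 were not analysed here.

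HSCs of all 4 genotypes held RNA of many interferon-stimulated genes. Of the 41, 23 were at 1 RPKM or more in all 26 libraries, and 14 were listed at 0 in at least 1 library. The mean over all libraries was at least 100 RPKM for 6 genes: the virus tether Bst2 (187), Ifi47, the exonuclease gene Isg20, Igtp, Ifi35 and Irgm1. It was under 10 RPKM for 11 genes, among them the antiviral GTPase genes Mx1 (2.53) and Mx2 (4.53), the oligoadenylate synthetase gene Oas2 (4.1), Ifit3 and Stat2. The chemokine gene Cxcl10 reached 1 RPKM in 6 libraries: 1 of JAK2V617F, 2 of Ezh2 loss and 3 of the double mutant. In all 5 control libraries it was listed at 0.

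**Figure D1:**
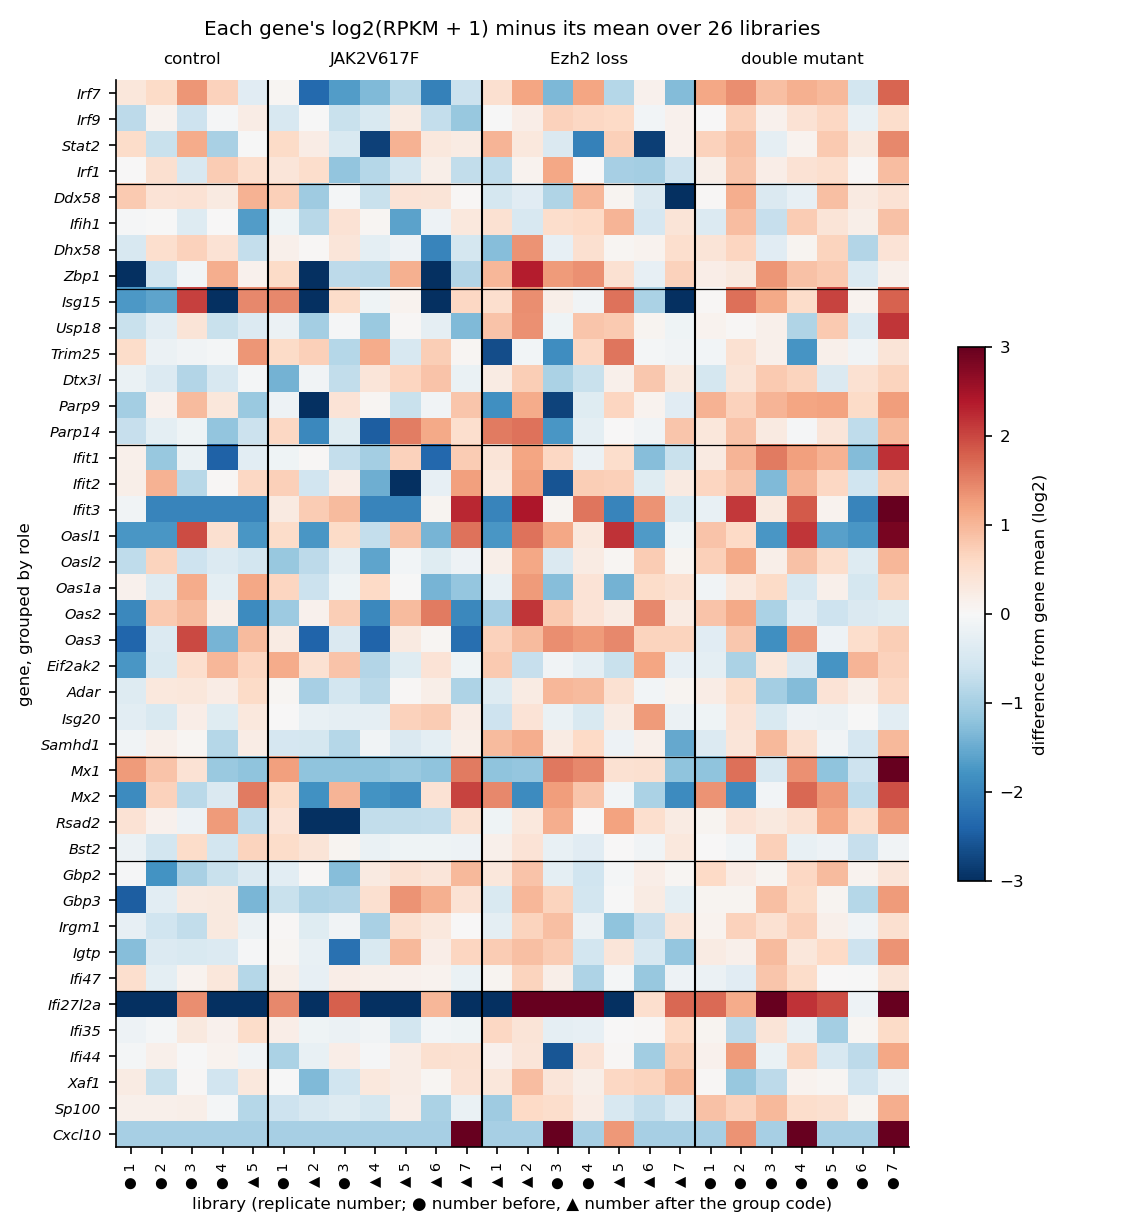
Rows are the 41 genes grouped by role, columns the 26 libraries by genotype, and colour is each gene's log2(RPKM + 1) in a library minus its mean over all libraries, with the scale ending at 3 in either direction. Circles and triangles beside the replicate numbers mark the title style, and the column of double-mutant replicate 7 is above the gene means for most genes.

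The mean of log2(RPKM + 1) over the 41 genes was lower in control and JAK2V617F libraries than in libraries with Ezh2 loss and double-mutant libraries. It was 3.66, 3.94, 4.41, 3.89 and 4.01 in the control libraries, a mean of 3.98 ± 0.27 (SD, n = 5). JAK2V617F libraries ran from 3.36 through a median of 3.97 to 4.36 (3.93 ± 0.39, n = 7). Ezh2 loss libraries ran from 4.03 through 4.39 to 5.0 (4.36 ± 0.34, n = 7), and double-mutant libraries from 3.94 through 4.51 to 5.45 (4.62 ± 0.46, n = 7). The groups overlapped: double-mutant replicate 6 lay below the control mean, while the other 6 lay above every control library. In number-first libraries the means were 3.97 in control (n = 4), 4.14 in JAK2V617F (n = 2), 4.47 in Ezh2 loss (n = 2) and 4.62 in the double mutant (n = 7). In number-last libraries they were 3.85 in JAK2V617F (n = 5) and 4.32 in Ezh2 loss (n = 5), beside 4.01 in the lone control library. With Retnlg at 0 they were 3.98 in control (n = 5), 3.93 in JAK2V617F (n = 6) and 4.42 ± 0.36 in the double mutant (n = 4). These means are a description without a test, and in bulk RNA fewer cells of a type and less RNA per cell cannot be told apart.

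**Figure D2:**
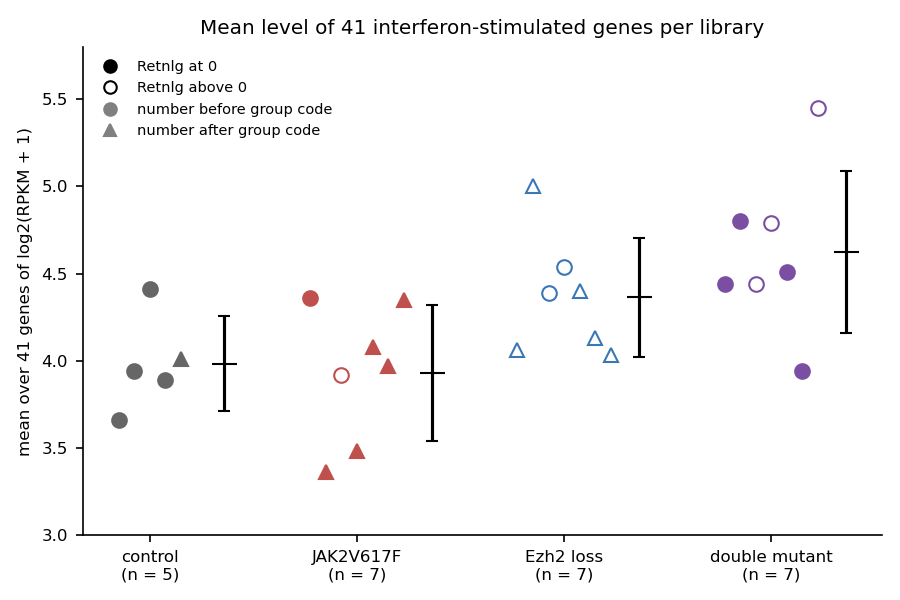
Each point is a library, the vertical axis is the mean of log2(RPKM + 1) over the 41 genes and starts at 3, and bars are the group mean ± SD. Circles are number-first and triangles number-last libraries, filled where Retnlg is at 0. Control libraries lie between 3.66 and 4.41, and double-mutant libraries between 3.94 and 5.45.

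The comparison of the double mutant with control holds 1 number-last library, control replicate 5. In it, 33 of 41 genes were higher in the double mutant, with a median fold change of 0.54, beside 0.03 over all genes tested. No gene of the 41 was called by limma at an adjusted p under 0.05, and 0.0% of all 12116 genes were. At an unadjusted p under 0.05, 10 of 41 were higher, against a background of 2.54% of all genes higher, and 0 were lower, against 2.43%. The median was 0.53 with the style covariate, 0.45 in number-first libraries and 0.38 in libraries with Retnlg at 0, where 4 were higher (3.2% of all genes) and 1 lower (2.58%) at that p. Without double-mutant replicate 7, the library with the highest mean, the median was 0.31 and 6 genes were higher at that p, beside 2.15% of all genes. All of these comparisons are made within a single fit, so those with control share its 5 libraries.

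By role, the 5 interferon-induced GTPases, whose families act in defence against intracellular pathogens, were all higher in the double mutant. Their median was 0.95, and 4 of them had an unadjusted p under 0.05. Gbp2 (chr3:142620602-142638008), a guanylate-binding protein, was at 56.4, 16.2, 29.1, 36.2 and 42.6 RPKM in control. In the double mutant it ran from 61.4 through a median of 75.6 to 114 RPKM. Every double-mutant library lay above every control library, a pattern shown by 0.182% of all genes tested in that direction. The fold change was 1.21 (SE 0.32, limma adjusted p = 0.674), and 1.38 (SE 0.27, adjusted p = 0.0617) with the style covariate. Igtp, which encodes an immunity-related GTPase also named Irgm3, was at 40.3, 73.5, 71.9, 74.5 and 96.0 RPKM in control and ran from 63.5 through 125 to 253 in the double mutant. These ranges overlapped, and the fold change was 0.95 (SE 0.42). Gbp3 (1.03) and Irgm1 (0.65) were also higher, and Ifi47 was at 153 ± 52.2 RPKM in control and 175 ± 53.3 in the double mutant (0.22, SE 0.27).

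Of the 12 RNA-directed effectors, 9 were higher in the double mutant than in control. Ifit1, which binds foreign RNA ends, was at 25.6, 9.82, 19.9, 3.42 and 18.2 RPKM in control and ran from 8.68 through 47.9 to 108 in the double mutant (fold change 1.64, SE 0.56, limma adjusted p = 0.964). All double-mutant libraries except replicate 6 lay above every control library. Ifit3, of the same gene family, was listed at 0 in 4 control libraries and at 2.66 RPKM in the other, against 0 to 89.8 with a median of 3.84 in the double mutant. Ifit3 has a near-identical copy, Ifit3b, and how reads shared by such copies were counted is not given in the sources used here. Oasl2 (chr5:114896936-114912234), an oligoadenylate synthetase-like gene, was at 29.2, 80.7, 32.4, 37.8 and 33.9 RPKM in control and ran from 38.4 through 84.1 to 112 in the double mutant (fold change 0.92, SE 0.32). Control replicate 2, at 80.7, lay among the double-mutant libraries. The RNA-editing enzyme gene Adar (-0.26), the kinase gene Eif2ak2 (-0.18) and Oas1a (-0.26) were the 3 effectors with a fold change below 0.

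All 4 transcription factors were higher in the double mutant than in control, by a median of 0.49. Irf9, the DNA-binding subunit of the ISGF3 complex, was at 46.1, 86.1, 51.7, 77.8 and 92.8 RPKM in control and ran from 68.3 through 108 to 131 in the double mutant (fold change 0.54, SE 0.24). The ranges overlapped, and the fold change of Irf1, an interferon-gamma target, was 0.18 (SE 0.35). Sp100 (chr1:85649988-85709998), a component of nuclear bodies, was at 73.8, 73.8, 74.7, 63.1 and 36.2 RPKM in control and ran from 70.7 through 107 to 142 in the double mutant. A single double-mutant library, replicate 6, lay within the control range, and the fold change was 0.76 (SE 0.28, limma adjusted p = 0.964). Ifi27l2a, which encodes a small mitochondrial protein, was listed at 0 in 4 control libraries and at 27.8 RPKM in the other. In the double mutant it was above 0 in all 7 libraries, from 8.95 through 41.7 to 195 RPKM. For the single mutants it was at 0 in 6 of 10 number-last libraries, and it was above 0 in all number-first libraries outside control. The other genes with a fold change below 0 were the RNA sensor gene Ddx58 (RIG-I, -0.29), the ubiquitin ligase gene Trim25 (-0.42), Xaf1 (-0.23), Ifi35 (-0.28) and Bst2 (-0.07).

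**Figure D3:**
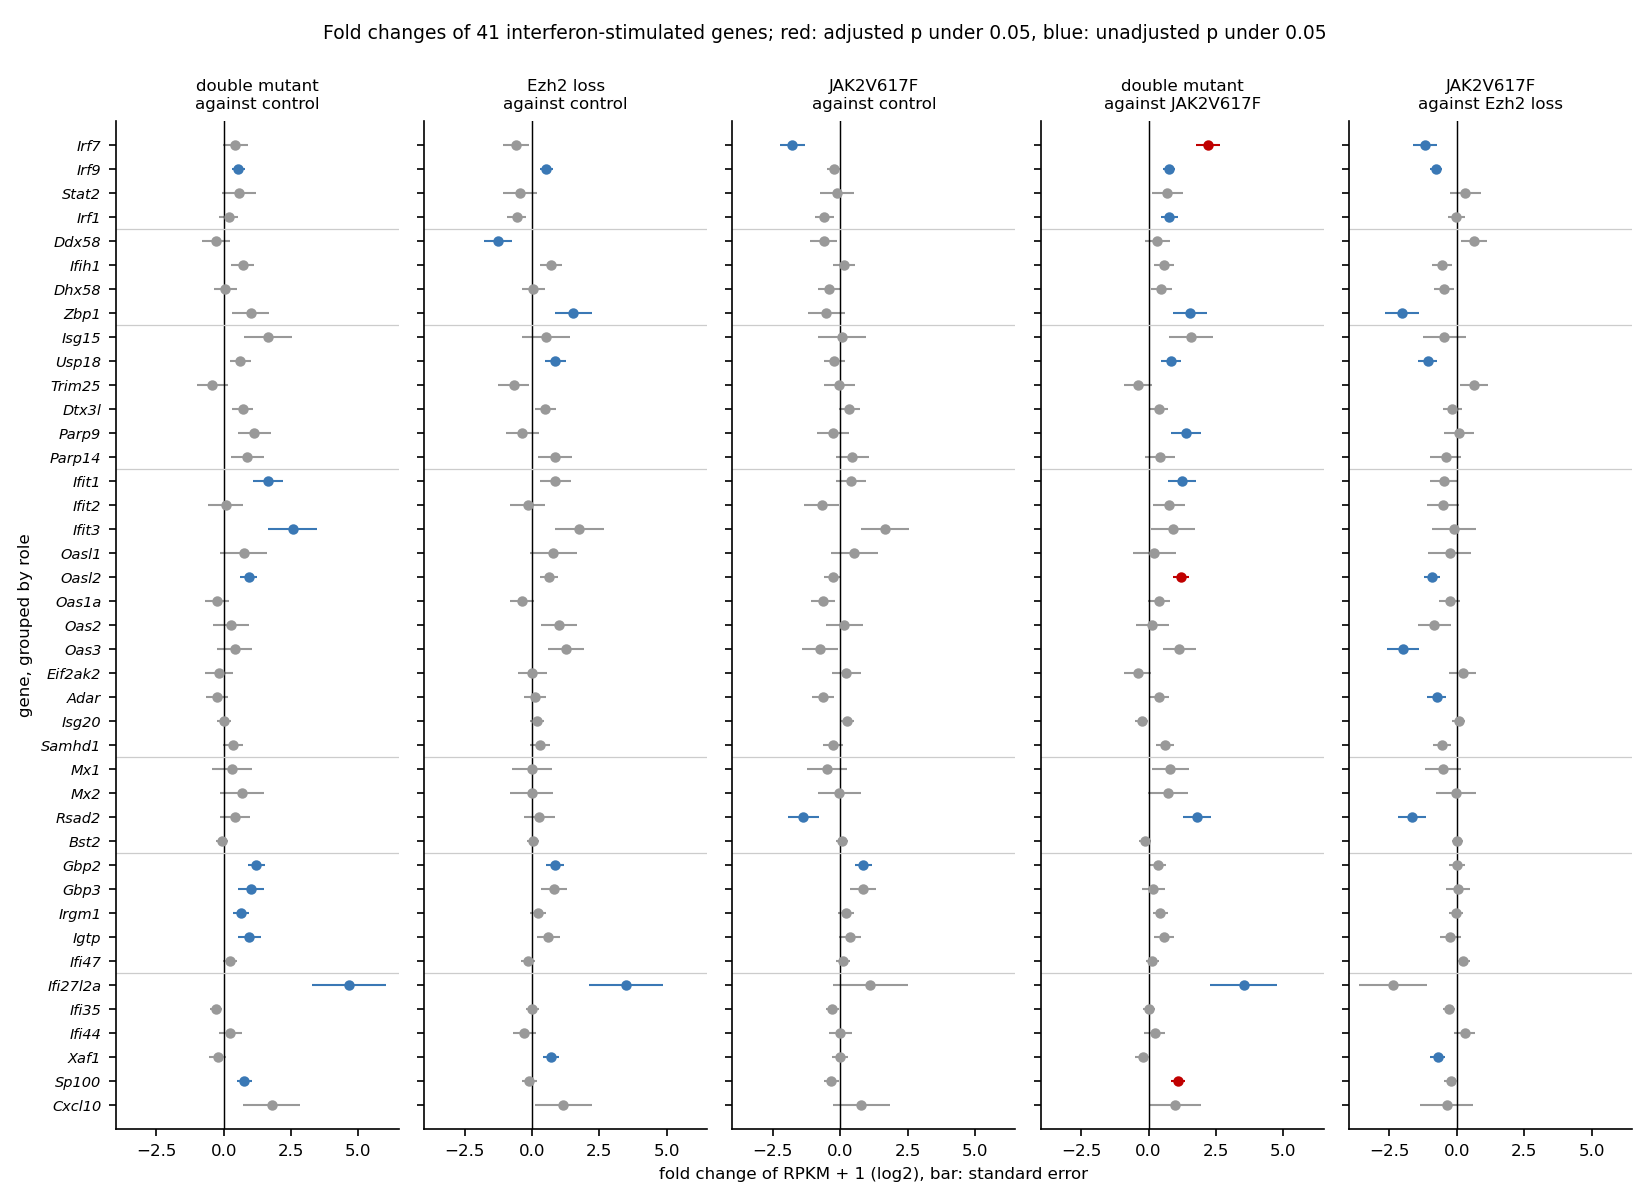
Points are limma fold changes on the log2(RPKM + 1) scale with their standard errors for the 41 genes, grouped by role, in 5 comparisons. Red marks an adjusted p under 0.05 and blue an unadjusted p under 0.05. Red points (Irf7, Sp100 and Oasl2) appear in the double mutant against JAK2V617F, a call that ended with the style covariate.

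In Ezh2 loss against control, 29 of 41 genes were higher, with a median of 0.28 beside -0.12 over all genes. No gene of the 41 was called by limma, and 0.0% of all genes were. At an unadjusted p under 0.05, 6 were higher (background 2.72%) and 1 was lower (background 5.6%). With the style covariate 27 were higher (median 0.33), and in number-first libraries 25 were (median 0.43). No Ezh2 loss library had Retnlg at 0, so neutrophil RNA and Ezh2 loss cannot be told apart by leaving libraries out. With a neutrophil marker score as a covariate 28 were higher (median 0.39). Erythroid markers also moved with this comparison, with a median sum of 1060 RPKM in Ezh2 loss and 31.5 in control, and their part in it was not tested. Gbp2 ran from 38.3 through 60.7 to 106 RPKM in Ezh2 loss (fold change 0.85, SE 0.32, adjusted p = 0.501), and 3 of the 7 libraries lay within the control range. Its fold change was 0.41 (SE 0.29) with the style covariate. Ifi27l2a was listed at 0 in 2 Ezh2 loss libraries and reached 242 RPKM, with a median of 35.2 (3.49, SE 1.38). Its difference was 5.27 (SE 1.22, adjusted p = 0.308) with the style covariate.

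Zbp1, a sensor of Z-form nucleic acid, was at 0, 5.39, 8.11, 19.5 and 9.64 RPKM in control and ran from 7.15 through 18.3 to 48.3 in Ezh2 loss (fold change 1.53, SE 0.69, adjusted p = 0.563). Xaf1, which encodes a binder of the apoptosis inhibitor XIAP, was at 43.9, 22.9, 38.1, 24.6 and 46.7 RPKM in control and ran from 41.7 through 57.8 to 73.5 in Ezh2 loss (0.71, SE 0.30). For Xaf1, 6 of 7 Ezh2 loss libraries lay above every control library. The gene at an unadjusted p under 0.05 in the other direction was Ddx58. It was at 19.8, 14.9, 15.1, 13.4 and 23.7 RPKM in control and ran from 0 through 7.92 to 22.8 in Ezh2 loss (-1.26, SE 0.51, adjusted p = 0.511), with 6 of 7 libraries below every control library. In number-first libraries the mean of Ddx58 was 15.8 RPKM in control (n = 4) and 14.1 in Ezh2 loss (n = 2, at 5.4 and 22.8). With the style covariate 0 of 41 genes were lower at an unadjusted limma p under 0.05, beside 3.29% of all genes. Usp18, the protease that removes ISG15 and dampens the receptor, ran from 22.6 through 27.3 to 48.1 RPKM in control and from 33.4 through 64.3 to 97.2 in Ezh2 loss (0.87, SE 0.39).

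In JAK2V617F against control, 19 of 41 genes were higher and 22 lower, with a median of -0.03 beside -0.11 over all genes, and the median changed sign under quantile normalisation (0.08). No gene of the 41 was called by limma, beside 0.00825% of all genes. At an unadjusted p under 0.05, 1 gene was higher, Gbp2 (background 2.33%), and 2 were lower, Irf7 and Rsad2 (background 5.6%). The median was -0.13 with the style covariate (2 higher and 2 lower at that p, beside 1.96% and 2.17% of all genes) and 0.03 in number-first libraries. Irf7 (chr7:141262706-141266481), the transcription factor that amplifies type I interferon production, was at 38, 45.1, 76.5, 49.2 and 23.2 RPKM in control. In JAK2V617F it ran from 5.15 through 11.3 to 31.0 RPKM, with 6 of 7 libraries below every control library. The fold change was -1.78 (SE 0.48, limma adjusted p = 0.458). The lowest control value, 23.2, came from the lone number-last control library. With the style covariate the difference was -1.53 (SE 0.51, adjusted p = 0.999), and in number-first libraries, 2 of them JAK2V617F, it was -1.55 (SE 0.64). Rsad2, which encodes the radical-SAM enzyme viperin, was at 14.4, 11.6, 9.31, 26.7 and 5.7 RPKM in control and ran from 0 through 5.92 to 14.7 in JAK2V617F (-1.37, SE 0.57). Gbp2 ran from 23.4 through 70.4 to 116 RPKM in JAK2V617F (0.85, SE 0.32), in the direction opposite to Irf7, and its difference was 0.42 (SE 0.29) with the style covariate.

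In the double mutant against JAK2V617F, 36 of 41 genes were higher, with a median of 0.58 beside 0.14 over all genes. limma called 3 of 41, all higher, beside 2.26% of all genes. At an unadjusted p under 0.05, 11 were higher (background 12.1%) and 0 lower (background 5.77%). Title style is mixed with this comparison, since all double-mutant but 2 of 7 JAK2V617F libraries are number-first. With the style covariate 35 genes were higher, the median was 0.61 (0.01 over all genes) and 0 of 41 were called, beside 0.033% of all genes, so the calls ended for nearly all genes and not for the 41 alone. Then 10 of 41 were higher at an unadjusted p under 0.05, beside 3.77% of all genes. In number-first libraries 30 were higher, the median was 0.35, 0 of 41 and 0 of all genes were called, and 9 were higher at that p, beside 3.38%. In libraries with Retnlg at 0, 28 of 41 were higher (62.1% of all genes were), the median was 0.41 beside 0.25 over all genes, and 8 were higher at that p, beside 15.3%. With Retnlg at 0 and the style covariate together, 29 were higher, and at that p 2 were higher (4.01% of all genes) and 1 lower (4.45%).

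Irf7 ran from 19.9 through a median of 63.9 to 102 RPKM in the double mutant, and all its libraries except replicate 6 lay above the highest JAK2V617F library, at 31.0. It rose by 2.21 (SE 0.43, limma adjusted p = 0.0133) against JAK2V617F, from 14.0 ± 9.0 to 64.4 ± 25.1 RPKM. With the style covariate the difference was 1.87 (SE 0.52, adjusted p = 0.264), in number-first libraries 1.77 (SE 0.59, adjusted p = 0.615) and in libraries with Retnlg at 0 it was 1.93 (SE 0.48, adjusted p = 0.0343). Sp100 rose from 50.5 ± 13.2 RPKM in JAK2V617F, where it ran from 33.8 through 47.5 to 75.7, to 109 ± 24.6 (1.10, SE 0.25, adjusted p = 0.0201). The ranges of Sp100 overlapped in a single library on either side. The difference in Sp100 was 0.76 (adjusted p = 0.455) with the style covariate and 0.97 (adjusted p = 0.0546) with Retnlg at 0. Oasl2 rose from 34.3 ± 11.9 RPKM, with a range from 16.3 through 39.1 to 47.3, to a mean of 80.2 (1.21, SE 0.29, adjusted p = 0.0271). For Oasl2 6 of 7 double-mutant libraries lay above every JAK2V617F library, and the difference was 1.35 (adjusted p = 0.179) with the style covariate and 1.18 (adjusted p = 0.0778) with Retnlg at 0.

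Other genes of the 41 were close to the threshold in the double mutant against JAK2V617F. Irf9 ran from 36.0 through 56.8 to 95.4 RPKM in JAK2V617F, below 4 of 7 double-mutant libraries, and differed by 0.78 (SE 0.22, limma adjusted p = 0.0538). Rsad2 ran from 11.1 through 14.8 to 26.9 RPKM in the double mutant and differed by 1.79 (SE 0.52, adjusted p = 0.057). Parp9, which forms a ubiquitin ligase complex with Dtx3l, ran from 0.401 through 10.9 to 21.9 RPKM in JAK2V617F and from 18.2 through 25.6 to 29.4 in the double mutant (1.40, SE 0.55, adjusted p = 0.168). Parp9 shares 458 exonic bases with Dtx3l on the opposite strand, and reads there cannot be told apart without strand. Adar likewise shares 1365 bases (16.8% of its exons) with Chrnb2. On the same strand, Igtp shares 162 bases (8.01%) with Irgm2, Ifi47 111 (4.49%) with Olfr56 and Irf9 123 (2.28%) with Rnf31. Strand would not separate reads in these. The 5 genes that were not higher were Bst2 (-0.13), Eif2ak2 (-0.41), Isg20 (-0.25), Trim25 (-0.39) and Xaf1 (-0.22).

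**Figure D4:**
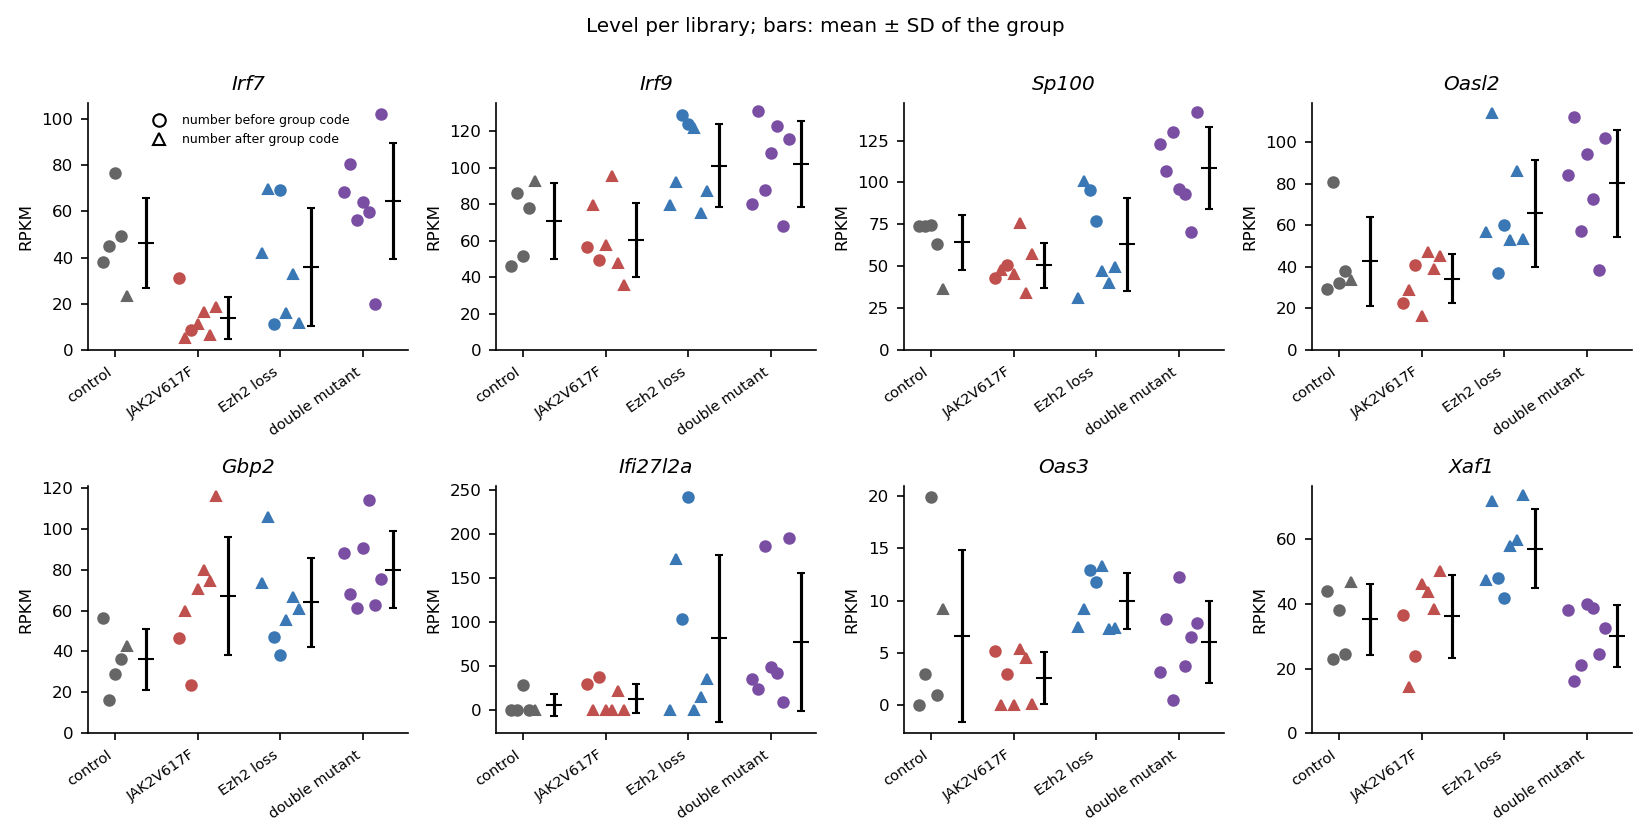
RPKM of 8 of the genes in each library, with circles for number-first and triangles for number-last libraries and bars for the group mean ± SD. Irf7 is at or below 31.0 RPKM in every JAK2V617F library, Xaf1 is lower in every double-mutant than in every Ezh2 loss library, and every JAK2V617F library is below every Ezh2 loss library for Oas3.

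In the double mutant against Ezh2 loss, 30 of 41 genes were higher, with a median of 0.23 beside 0.14 over all genes, and without double-mutant replicate 7 the median was 0.06. limma called 0 of 41, beside 0.702% of all genes. At an unadjusted p under 0.05, 5 were higher (background 10.5%) and 1 lower (background 4.59%). With the style covariate 28 of 41 were higher and 4 had such a p (4.17% of all genes). The gene lower in the double mutant was Xaf1, which ran from 16.2 through 32.5 to 39.9 RPKM in the double mutant, below every Ezh2 loss library (41.7 to 73.5). This held for 0.165% of genes in that direction. Its fold change was -0.94 (SE 0.28, adjusted p = 0.108), and -0.66 (SE 0.32) with the style covariate. Sp100 ran from 31.1 through 49.8 to 101 RPKM in Ezh2 loss (0.87, SE 0.25, adjusted p = 0.104), and its difference was 0.31 in number-first libraries. Parp9 ran from 0.886 through 9.08 to 26.8 RPKM in Ezh2 loss (1.49, SE 0.55, adjusted p = 0.189). Irf7 ran from 11.2 through 32.7 to 69.5 RPKM in Ezh2 loss, a wide range, and differed by 1.03 (SE 0.43).

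JAK2V617F and Ezh2 loss are balanced for title style, with 2 number-first and 5 number-last libraries each. In JAK2V617F, 30 of 41 genes were lower than in Ezh2 loss, with a median of -0.30 beside 0.00 over all genes. limma called 0 of 41, beside 0.0743% of all genes. At an unadjusted p under 0.05, 9 were lower (background 3.5%) and 0 higher (background 3.67%), and with the style covariate 10 were lower, beside 4.04% of all genes. In the 2 number-first libraries of each genotype, 3 were lower (2.2% of all genes) and 1 was higher (3.7%) at that p. Neutrophil markers moved with this comparison too, since Retnlg was above 0 in all Ezh2 loss libraries and in 1 of JAK2V617F, so the comparison was also fitted with a neutrophil marker score as a covariate. Then 30 of 41 were again lower, with a median of -0.45 beside -0.02 over all genes, and 9 were lower at an unadjusted p under 0.05, beside 3.16% of all genes. Erythroid markers also differed, with a median sum of 17.1 RPKM in JAK2V617F and 1060 in Ezh2 loss. The medians of T and NK cell markers were 87.5 and 157 RPKM. The part of these other cells was not tested.

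The 9 genes with an unadjusted p under 0.05 in JAK2V617F against Ezh2 loss came from 6 of the 7 role groups. Oas3, the largest oligoadenylate synthetase, was at 0 to 5.34 RPKM in JAK2V617F with a median of 2.94, and ran from 7.32 through 9.2 to 13.3 in Ezh2 loss. Every JAK2V617F library lay below every Ezh2 loss library, which held for 0.0825% of genes in that direction, with a fold change of -2.0 (SE 0.61, limma adjusted p = 0.37). In control, Oas3 spanned 0.0127 to 19.9 RPKM. Irf9 ran from 75.3 through 92.1 to 129 RPKM in Ezh2 loss, and 5 of 7 JAK2V617F libraries lay below all of them (-0.77, SE 0.22, adjusted p = 0.304). Zbp1 was listed at 0 in 2 JAK2V617F libraries and reached 19.1 RPKM there (-2.04, SE 0.63, adjusted p = 0.372). Rsad2 ran from 9.4 through 13.2 to 25.5 RPKM in Ezh2 loss (-1.65, SE 0.52, adjusted p = 0.399). Oasl2 (-0.92), Usp18 (-1.09), Irf7 (-1.18), Xaf1 (-0.72) and Adar (-0.75) were the others.

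The interaction asks whether Ezh2 loss acts differently with JAK2V617F than without it: it is double mutant minus JAK2V617F, less the difference between Ezh2 loss and control. The median over the 41 genes was 0.24 beside 0.25 over all genes, 24 genes were above 0, and the median was -0.05 under quantile normalisation. limma called 1 of 41, beside 1.77% of all genes, and at an unadjusted p under 0.05, 5 were above 0 (background 13.2%) and 1 below (background 5.05%). The called gene was Irf7, at 2.81 (SE 0.64, adjusted p = 0.0246): its mean went from 46.4 to 36.0 RPKM with Ezh2 loss alone and from 14.0 to 64.4 RPKM where JAK2V617F was present. The call ended with the style covariate (2.22, SE 0.81, adjusted p = 0.753) and in number-first libraries (2.59, SE 0.87, adjusted p = 0.698). It also ended without control replicate 2 (adjusted p = 0.0581) or control replicate 3 (adjusted p = 0.0585). Sp100 was at 1.20 (SE 0.37, adjusted p = 0.0788), Irf1 at 1.33 (SE 0.48, adjusted p = 0.129) and Ddx58 at 1.59 (SE 0.70, adjusted p = 0.218). These were 0.62, 0.88 and 1.02 with the style covariate, and Ifi27l2a, at 0.03 without it, was at -4.22 (SE 1.93, adjusted p = 0.795). Irf1 ran from 16.2 through 25.6 to 55.5 RPKM in JAK2V617F, from 18.3 through 24.5 to 86.6 in Ezh2 loss and from 39.4 through 52.0 to 73.2 in the double mutant, beside 38.5, 53.8, 27.3, 66.0 and 55.0 in control.

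A pair of contrasts chosen after seeing the data averaged each alteration over the other. For Ezh2 loss, averaged over both Jak2 genotypes, 34 of 41 genes were higher, with a median of 0.49 beside 0.01 over all genes. limma called 0 of 41, beside 0.0413% of all genes, and at an unadjusted p under 0.05, 14 were higher (background 4.2%) and 0 lower (background 3.62%). With the style covariate 36 were higher, and again 14 had an unadjusted p under 0.05, beside 4.16% of all genes. In number-first libraries 27 were higher and 12 had such a p, beside 2.79%. Neutrophil RNA is mixed with this average. Retnlg was at 0 in 0 of 7 Ezh2 loss and 4 of 7 double-mutant libraries, against 5 of 5 control and 6 of 7 JAK2V617F. Erythroid markers had median sums of 1060 RPKM in Ezh2 loss, 22.1 in double mutants, 31.5 in control and 17.1 in JAK2V617F. Their part was not tested. Most of the 30 alternative fits each left out 1 of the 26 libraries and so shared nearly all their data. The others used the style covariate, number-first libraries, a neutrophil marker score as a covariate or quantile normalisation. Over these 30 fits, 27 to 37 genes were higher. The median ran from 0.4 to 0.55 in these fits. The smallest p-values were those of Oasl2 (0.92, SE 0.22, adjusted p = 0.136), Irf9 (0.65, SE 0.16, adjusted p = 0.183), Ifi27l2a (3.51, SE 0.94), Zbp1 (1.53, SE 0.47) and Usp18 (0.85, SE 0.27). For JAK2V617F, averaged over both Ezh2 genotypes, 25 of 41 were higher, with a median of 0.08. limma called 0 of 41 and 0.0% of all genes, and at an unadjusted p under 0.05, 1 was higher, Gbp2 at 0.60 (background 2.46%), and 1 lower, Xaf1 at -0.47 (background 1.87%). These averages reuse the libraries of the comparisons above and are no independent support for them.

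Upstream of these genes, most interferon genes were listed at 0. Of 19 ligand genes in the table, 17 were at 0 in all libraries, most of them closely related Ifna genes. How reads shared by related copies were counted is not given, so a 0 here does not show absence: the paired globin genes Hba-a1 and Hba-a2 were at 0 in all libraries while erythroid markers summed to up to 6080 RPKM. Of the others, Ifnk was at 5.63 RPKM in 1 library, and Ifnz was above 0 in 4 and reached 1.41 RPKM. Among 18 tested genes of receptors and proximal signalling, 16 were higher in the double mutant than in control (0 called by limma, 3 at an unadjusted p under 0.05, beside 2.54% of all genes) and 15 were with the style covariate. Against JAK2V617F 16 were higher (58.8% of all genes were) and 2 were called (2.26%), and with the style covariate 13 were higher and 0 called (0.033% of all genes). Against JAK2V617F the double mutant had higher Ifngr1, a chain of the interferon-gamma receptor (0.80, SE 0.21, adjusted p = 0.0447), and higher Ptpn6, the phosphatase SHP-1 (0.69, SE 0.17, adjusted p = 0.0327). Their adjusted p-values were 0.576 and 0.498 with the style covariate.

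Ifngr2, the other chain of that receptor, passed in the interaction (3.87, SE 0.89, limma adjusted p = 0.0246), where 1.77% of all genes were called. Its mean was 26.2 RPKM in double mutants, 5.64 with Ezh2 loss, 9.14 with JAK2V617F and 21.9 in control. The interaction of Ifngr2 was 4.18 (adjusted p = 0.694) with the style covariate. Of 8 tested interferon regulatory factors outside the 41, 3 were higher in the double mutant than in control (0 called by limma, 0 at an unadjusted p under 0.05). Among these factors, Irf2, a repressor of interferon targets, passed in the interaction at 2.21 (SE 0.58, adjusted p = 0.043), but was at 0.01 with the style covariate. The induction pathway, which runs from nucleic acid sensors to interferon genes, had 15 tested genes, of which 10 were higher in the double mutant than in control and 0 were called by limma (0 at an unadjusted p under 0.05). A wider list of 75 tested interferon-stimulated genes outside the 41 had 55 higher in the double mutant than in control, with a median of 0.28, 0 called by limma, and 9 higher (2.54% of all genes) and 1 lower (2.43%) at an unadjusted p under 0.05. Of that list Zc3hav1, an RNA-binding antiviral factor (2.03, adjusted p = 0.0468), Daxx (1.86, adjusted p = 0.0468) and Lgals3bp (0.94, adjusted p = 0.0478) were higher in the double mutant than in Ezh2 loss. These were the 3 of 75 called by limma there, beside 0.702% of all genes. Ifitm1, a membrane restriction factor with a mean of 3600 RPKM in JAK2V617F, fell by 0.78 in the double mutant against JAK2V617F (adjusted p = 0.0201). In that comparison limma called 1 of the 75 higher and 1 lower, beside 2.26% of all genes. With the style covariate the adjusted p-values of Zc3hav1, Daxx, Lgals3bp and Ifitm1 were 0.423, 0.553, 0.39 and 0.319.

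The genes outside the 41 whose levels followed the library mean most closely, by the lower of the Pearson correlations within number-first (15 libraries) and number-last libraries (11 libraries), were Amdhd2 (0.67), Kifc2 (0.65), Spag5 (0.64), Rnase6 (0.64) and H2-D1 (0.64). These correlations are descriptions over libraries that also share depth and genotype. H2-D1, a class I major histocompatibility gene, was 1180 ± 31.4 RPKM in double mutants, 824 ± 246 with Ezh2 loss, 664 ± 197 with JAK2V617F and 838 ± 142 in control. Its level moved with title style. In number-first libraries the means were 1180, 1100, 925 and 892 RPKM in that order of genotypes. In number-last libraries they were 714 with Ezh2 loss, 560 with JAK2V617F and 622 in the lone control library. Rnase6, a secreted ribonuclease gene, was at 102 ± 36.0 RPKM in double mutants and 75.3 ± 31.3 with Ezh2 loss. It was at 45.6 ± 24.9 with JAK2V617F and 58.9 ± 25.6 in control. Both genes were picked for following the library mean, so a ranking of groups shared with that mean is no further result. Kifc2 and Spag5 were near 0 in most libraries, where a correlation rests on few values.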

How the data were processed

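The authors deposited RPKM values for 26 libraries in a table with 1 column each, and 0 columns were left unmapped. The tools named are STAR 2.4.2a, SAMtools 0.1.19 and Subread 1.5.0, with mm10 as the genome, per the submitters' processing notes; how they were set, and how reads shared by genes were counted, is not given there. Groups came from the genotype label. The test covered 12116 genes that reached an RPKM minimum of 1 in 5 or more libraries. Values entered limma 3.58.1 (R 4.3.3) as log2(RPKM + 1), all 4 groups sharing a variance estimate (trend and robust), after it was tested on simulated data. Adjustment (Benjamini-Hochberg) ran over all genes tested, with calls at 0.05, and p-values are two-sided. Genes described library by library are those called in any contrast, the 8 smallest p-values in double mutant against control, the 4 smallest in each other contrast, and at most 4 genes per pathway list. Parp9 in JAK2V617F, Usp18 and further genes given by fold change alone were named after their values were seen. The members, lists and tests were chosen with earlier results of these data known. Alternatives were other pseudocounts, filters, normalisations and covariates, subsets of libraries and leaving out each library. Coordinates are from GENCODE M21 (GRCm38). Depth (7.82 to 29.21 M reads) was estimated from steps between low RPKM values. Correlations between libraries ran from 0.762 to 0.91. The values of 1 gene of the pathway lists are not reported here.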

Additional observations from a re-analysis of the deposited data

Results flagged for a closer look

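Among the 16 named genes, each group's highest or lowest library was compared with its nearest neighbour over the group's range (Dixon's ratio, 68 groups of 4 to 10 libraries examined). Chance alone marks about 1 in 20 such groups. Irf7 was low in double-mutant replicate 6, at 19.9 RPKM, with the next library at 56.3. Sp100 was low in control replicate 5, at 36.2 RPKM (next 63.1), the lone number-last control library. Oasl2 was high in control replicate 2, at 80.7 RPKM (next 37.8). Ifi27l2a was high in control replicate 3, at 27.8 RPKM, and Ifit3 in control replicate 1, at 2.66 RPKM, where the other control libraries were at 0. Ddx58 was low in Ezh2 loss replicate 7, at 0.0 RPKM (next 5.4), and Parp9 in JAK2V617F replicate 2, at 0.401 RPKM (next 7.03). The effect of Ezh2 loss on Irf7 differed between the Jak2 genotypes by 2.81 in log2 (interaction in limma, SE 0.64, adjusted p = 0.0246), a call that ended with title style as a covariate.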

How the results depend on the processing

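In the double mutant against JAK2V617F, limma called 3 of the 41 genes, beside 2.26% of all genes. The count was 0 with title style as a covariate (0.033% of all genes), 0 in number-first libraries (0%) and 1 with Retnlg at 0 (3.83%). It was 0 with Retnlg at 0 and the style covariate (0.0413%). With the number of detected genes as a covariate it was 0 (0.0413%), and with array weights 5 (4.48%). Leaving out each library gave 2 to 4, beside 0.685% to 5.52% of all genes. In the interaction 1 was called, beside 1.77% of all genes. The count was 0 with title style, in number-first libraries and with detected genes (0% of all genes in each), and 2 with array weights (6.43%). Leaving out each library gave 0 to 3. It was 0 without control replicate 2 (0.0413% of all genes) or 3 (0.421%), 2 without control replicate 5 (5.26%) and 3 without Ezh2 loss replicate 3 (3.99%). In the double mutant against Ezh2 loss (0 called, beside 0.702% of all genes) leaving out each library gave 0 to 1. The 1 was Sp100 without Ezh2 loss replicate 3 (limma adjusted p = 0.0447), where 1.43% of all genes were called. The cause was not tested. Counts in the other comparisons stayed at 0 under every alternative run, and no called value changed sign. The median over the 41 genes ran from 0.31 to 0.66 in the double mutant against control and from 0.2 to 0.43 in Ezh2 loss against control over all alternatives. The same range was -0.2 to 0.08 in JAK2V617F against control and -0.47 to -0.2 in JAK2V617F against Ezh2 loss. Whether the numbers in the titles pair libraries is not given in the sources used here. Number-last libraries numbered 2 to 5 in JAK2V617F and Ezh2 loss had correlations of 0.0057, 0.0229, -0.0565 and 0.0131 between their deviations. These values come from few libraries of 2 genotypes and cannot exclude pairing. In these libraries 0 of 41 genes were called with the replicate block and 0 without it. The averaged contrasts were chosen after seeing the data. A level listed at 0 RPKM is limited by 7.82 to 29.21 M reads.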
